A study of Homo sapiens with 6 samples.

Results

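Transcripts of the SR and hnRNP families of splicing factors, and of the factors that recognise the 3' splice site, were followed in MDA-MB-231 cells given the compound TCI04. Members were taken by gene symbol: SRSF followed by digits, symbols starting with HNRNP other than pseudogenes, and TRA2A, TRA2B, PTBP1, PTBP2, SF3B1, SF3B2, SF3A1, U2AF1, U2AF2, RBFOX2, QKI and MBNL1. Only probe sets annotated with 1 symbol counted, and the brightest of a gene's probe sets (by mean log2 signal) stood for it. This gave 42 of 19775 genes, measured by 171 probe sets, and 41 of the 42 passed the filter on dim signal. The rule also takes in HNRNPD-DT, a non-coding RNA that carries the hnRNP prefix only because its gene lies beside HNRNPD. SRSF2 and SRSF9 have no probe set with a single symbol on this array and were not analysed here.

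MDA-MB-231 is an established human triple-negative breast cancer cell line grown in serum-containing medium. One group of 3 arrays came from cells exposed for 48 h to TCI04, a code-named compound, at 50 µM. The other group of 3 arrays came from cells kept as long with phosphate-buffered saline (PBS). Whether a group's arrays were separate cultures is not in the labels, so the p-values reflect array-to-array spread that may be technical. All results concern 1 cell line, 1 dose and 1 time.

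SR proteins carry an RNA recognition motif and a domain rich in arginine and serine. Bound to exonic enhancers, they promote use of the neighbouring splice sites. The hnRNP proteins coat nascent RNA, and several of them, hnRNP A1 and the polypyrimidine tract binding proteins among them, often favour exon skipping. The U2AF dimer reads the 3' splice site and helps the U2 particle, with its SF3A and SF3B subunits, to settle on the branch point. Many of these genes limit their own mRNA by splicing in an exon that marks it for decay, and the balance between antagonists shifts with epithelial or mesenchymal state in breast cancer cells.

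The trimmed mean signal was 500.1 on each of the 6 arrays, and Spearman correlations over all probe sets were 0.932 to 0.938 within and 0.931 to 0.940 between groups. Mesenchymal markers of the line (6 measured of 7, all 6 above the filter) summed to signals of 97622 to 103430.0 with PBS and 99006 to 100153 with TCI04. VIM alone had a mean of 30225 with PBS, and the epithelial cadherin CDH1 had a mean of 6.37, below the filter. Luminal markers (7 measured, 5 above the filter) summed to 2812 to 3360 with PBS and 2079 to 3204 with TCI04. CDH1 and PGR fell below the filter. The others, KRT19, GATA3, EPCAM, FOXA1 and ESR1, had PBS means of 1659, 872, 405, 107 and 29.3, so CDH1 does not stand for the list. Leukocyte, fibroblast and endothelial markers had 1 of 4, 2 of 5 and 2 of 4 measured genes above the filter. TCI04 replicate 3 differed in its RNA control, with a 3' to 5' signal ratio of ACTB of 3.33 against 1.64 to 1.72 in the other 5 arrays.

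The question was whether TCI04 altered the level of any splicing factor transcript relative to PBS. None of the 41 tested members passed the adjusted threshold in either direction (limma with Benjamini-Hochberg adjustment over 32746 probe sets, smallest adjusted p = 0.697). Over all 13679 genes tested, 0% passed toward higher and 0.00731% toward lower values, the latter being the single gene FOS. At an unadjusted p under 0.05, 1 member, SRSF11, was higher and 0 were lower, where 2.89% and 4.11% of all genes were. In none of the 41 members did the 3 TCI04 arrays lie wholly above or wholly below the 3 PBS arrays, which was seen for 6.65% of all genes toward higher and 6.89% toward lower values.

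Of the 41 members, 24 had a higher and 17 a lower mean log2 signal with TCI04, beside 49.3% higher and 50.7% lower among all genes, and the median log2 difference was 0.009, beside -0.003 over all genes. The single differences ran from -0.18 for U2AF2 to 0.32 for HNRNPD-DT. For 38 of the 41 members the difference was smaller than the range of the 3 PBS arrays, as it was for 80.2% of all genes tested, and the exceptions were SF3A1, SRSF8 and TRA2A.

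The intervals of these genes were narrow. The 95% interval of the difference lay within 1.5-fold in either direction for 40 of 41 members (97.6%, beside 66.5% of all genes) and within 1.25-fold for 35 of 41 (85.4%, beside 39.0%). The members outside 1.25-fold were SRSF10, SRSF11, SF3A1, U2AF2, HNRNPUL1 and HNRNPD-DT, and only the interval of HNRNPD-DT passed 1.5-fold. The median mean signal of the members' probe sets was 8065, beside 537 for all genes tested, so these shares compare sets of unlike signal. Signals of different probe sets do not rank transcripts by abundance.

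The size and sign of such small differences depended on how the arrays were scaled. With each array centred on its median, the median log2 difference of all genes moved to 0.157 and that of the members to 0.168, and 40 of 41 members then had a higher mean, beside 77.9% of all genes. Those array medians, over all probe sets, were 64.0 to 74.3 with PBS and 58.9 to 59.8 with TCI04. The members' median signal was 8065. Relative to all genes, the members' median lay at 0.011 under both scalings. This was fixed in advance, since median centring moves the log2 difference of each gene by the same amount. After quantile normalization the members' median relative to all genes lay at -0.004. There 23 members were higher and 18 lower, beside 54.9% and 45.1% of all genes.

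**Figure D1:**
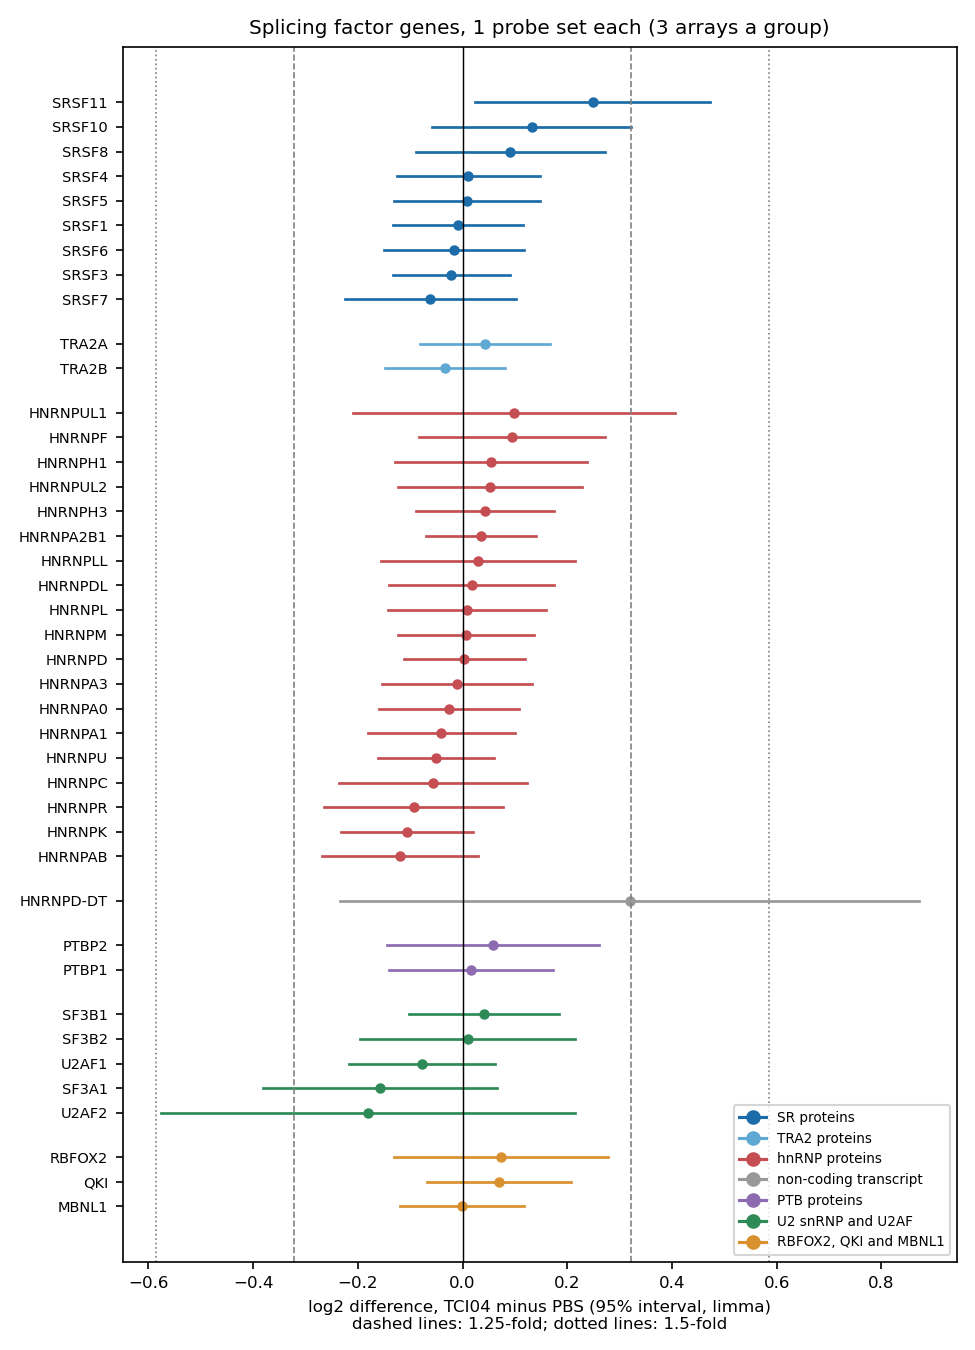
Log2 difference between TCI04 and PBS for the 41 tested splicing factor genes, 1 probe set each, grouped by role; points are the limma estimates and bars their 95% intervals (3 arrays a group). Dashed and dotted lines mark 1.25-fold and 1.5-fold; the interval of SRSF11 (0.02 to 0.47) is the one bar that does not cross 0, and that of HNRNPD-DT reaches past 1.5-fold.

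Among the SR proteins, SRSF11 stood at the upper end. SRSF11 is an SR-related protein that associates with U2AF. Its signal was 7962, 10952 and 9690 in PBS replicates 1 to 3 and 10614, 11130.4 and 11996 in TCI04 replicates 1 to 3. The groups overlapped, since PBS replicate 2 lay above TCI04 replicate 1, and PBS replicate 1 was the lowest of the 6. The log2 difference was 0.25 (standard error 0.10, 95% interval 0.02 to 0.47; limma, unadjusted p = 0.0331, adjusted p = 0.697). Without PBS replicate 1 it was 0.12 (limma, unadjusted p = 0.120), and without TCI04 replicate 3 it was 0.20 (limma, unadjusted p = 0.0974). Without PBS replicate 3 or TCI04 replicate 2 the unadjusted p in limma was 0.0561 or 0.0590, above 0.05.

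SRSF10, which is dephosphorylated to repress splicing during heat shock and mitosis, showed the same low array. Its signal was 5002, 6480.5 and 5884 with PBS and 6224, 6494 and 6212 with TCI04, a log2 difference of 0.13 (95% interval -0.06 to 0.32), which was 0.03 without PBS replicate 1 and 0.22 without PBS replicate 2. SRSF8, encoded by a retrogene copy of SRSF2, measured 3406 to 3516 with PBS and 3681, 3299 and 4147 with TCI04, so its TCI04 arrays fell on both sides of the PBS arrays (log2 difference 0.09).

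SRSF1 and SRSF3, the SR proteins most often described as oncogenic, differed little. SRSF1, the founding SR protein, had signals of 15962, 17286 and 17172 with PBS and 15941, 17147 and 17031 with TCI04. Its log2 difference was -0.01, with an interval from -0.13 to 0.12. SRSF3, the smallest SR protein and also an mRNA export adaptor, measured 16624, 17418 and 17700.2 against 16679, 17125 and 17149, a log2 difference of -0.02 (interval -0.13 to 0.09). In both genes replicate 1 was the lowest array of its group, with PBS as with TCI04. The other SR genes tested, SRSF4, SRSF5, SRSF6 and SRSF7, had log2 differences from -0.06 to 0.01. Over the 9 SR genes tested, 5 were higher and 4 lower, with a median of 0.008.

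SRSF12 was the member that failed the filter on dim signal. Its signals were 43.2, 34.3 and 40.1 with PBS and 27.8, 17.9 and 29.3 with TCI04, which did not overlap, but they lie near or below the filter of 33.9. Fitted without the filter, its log2 difference was -0.49 (limma, unadjusted p = 0.189, adjusted p = 0.795).

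The TRA2 proteins resemble SR proteins and bind GAA-rich enhancers. By their brightest probe sets, the 2 genes had small differences of opposite sign, with intervals that cover 0. TRA2A measured 5443, 5518 and 5565 with PBS and 5734, 5841 and 5452 with TCI04, a log2 difference of 0.04 (95% interval -0.08 to 0.17). TRA2B measured 13246, 14252 and 13888 with PBS and 13617, 13349 and 13465 with TCI04, a log2 difference of -0.03 (interval -0.15 to 0.08). The opposite sign was not shared by the other probe sets. All 3 other tested TRA2A probe sets had lower means, from -0.19 to -0.02. The 3 other tested TRA2B probe sets ran from -0.29 to 0.06, and 2 of them were lower.

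The hnRNP genes formed the largest group, with 19 members tested, 11 higher and 8 lower and a median log2 difference of 0.007. Their intervals lay within 1.25-fold in 18 of 19, HNRNPUL1 being the exception. The lowest values were those of HNRNPAB and HNRNPK. HNRNPAB, a close relative of HNRNPD, had signals of 19537, 22317 and 23122 with PBS and 19126, 20169.5 and 20364 with TCI04. PBS replicate 1 lay among the TCI04 arrays, and the log2 difference was -0.12 (95% interval -0.27 to 0.03; limma, unadjusted p = 0.104). HNRNPK, which binds C-rich RNA and DNA, measured 17206, 18597 and 18695 with PBS and 16698, 17640 and 16273 with TCI04. Here too PBS replicate 1 fell between TCI04 arrays, and the log2 difference was -0.11 (interval -0.23 to 0.02; unadjusted p = 0.0882). Without PBS replicate 1 these differences were -0.19 for HNRNPAB and -0.15 for HNRNPK (limma, unadjusted p = 0.00352 and 0.0196, adjusted p = 0.722 and 0.723). With all arrays, the other tested HNRNPK probe set (200097_s_at) had a PBS mean of 14874 and a log2 difference of -0.01 (95% interval -0.13 to 0.11). HNRNPAB has no other probe set.

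HNRNPR and HNRNPU followed with smaller values. HNRNPR, a relative of SYNCRIP, measured 15211 to 16321 with PBS and 15837, 13125 and 16036 with TCI04, and its log2 difference of -0.09 was -0.0003 without TCI04 replicate 2. HNRNPU, a scaffold protein of nuclear chromatin and RNA, measured 16733 to 17586 with PBS and 16128 to 16877 with TCI04, a log2 difference of -0.05 (interval -0.16 to 0.06). At the higher end HNRNPF, which binds G-rich runs near splice sites, measured 2978 to 3324 with PBS and 3655, 3269 and 3049 with TCI04, a log2 difference of 0.09.

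HNRNPA1 and HNRNPC are the textbook repressors of this family. HNRNPA1, the antagonist of SRSF1 at many exons, had signals of 7680, 8429 and 8402 with PBS and 7468, 8267 and 8096 with TCI04. Its log2 difference was -0.04 (95% interval -0.18 to 0.10), and the probe set is of a kind that can cross-hybridise with the gene's many processed pseudogenes. In all, 7 standing probe sets carry its suffix _x_at: those of HNRNPA1, HNRNPC, HNRNPDL, HNRNPU, PTBP1, SRSF7 and SRSF8. Binding of other transcripts to them was not tested. The 2 other tested HNRNPA1 probe sets do not carry that suffix and differed in sign. For 222040_at the log2 difference was -0.19 (95% interval -0.38 to -0.005, limma, unadjusted p = 0.0449, adjusted p = 0.697), and its groups did not overlap. For 221919_at it was 0.22 (95% interval -0.06 to 0.51), and the groups overlapped. HNRNPC, which binds U-runs and keeps cryptic exons out of mRNA, measured 21893, 18356 and 19334 with PBS and 20948, 17391 and 18956 with TCI04, a log2 difference of -0.06 (interval -0.24 to 0.12). Replicate 1 was the highest and replicate 2 the lowest array for HNRNPC in each group. HNRNPA2B1, HNRNPD, HNRNPDL, HNRNPH1, HNRNPH3, HNRNPL and HNRNPM lay between 0.003 and 0.054. HNRNPA0 and HNRNPA3 had values of -0.03 and -0.01, HNRNPLL and HNRNPUL2 of 0.03 and 0.05, and HNRNPUL1 of 0.10 with an interval from -0.21 to 0.41.

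PTBP1, the polypyrimidine tract binding protein of non-neuronal cells, measured 7295 to 8767 with PBS and 8026 to 8357 with TCI04, a log2 difference of 0.02 (95% interval -0.14 to 0.17). All 3 TCI04 arrays lay inside the PBS range. Its neuronal relative PTBP2 had a log2 difference of 0.06. HNRNPD-DT was dim, at 106, 88.4 and 58.9 with PBS and 96.4, 121 and 101 with TCI04. Its log2 difference of 0.32 had the widest interval of the 41, from -0.23 to 0.87.

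**Figure D2:**
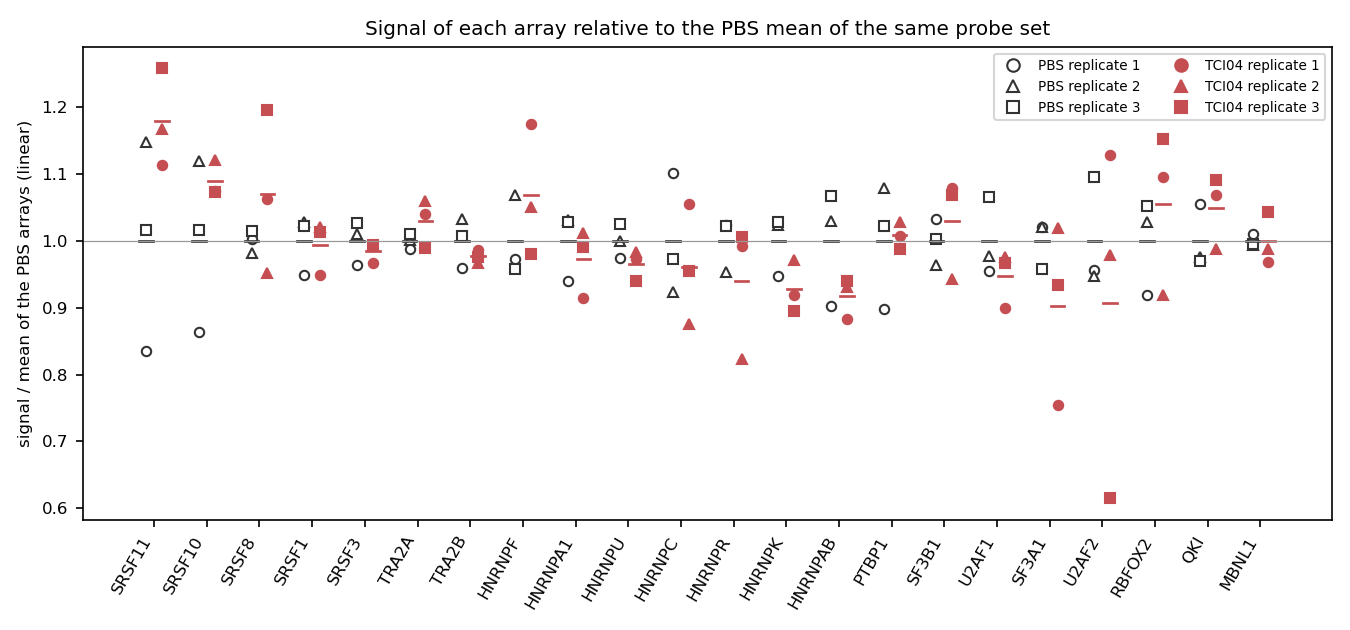
Signal of each array divided by the mean of the 3 PBS arrays of the same probe set (linear axis), for 22 named splicing factor genes; open black symbols are PBS and filled red symbols TCI04 arrays, the symbol shape gives the replicate, and bars are group means. The groups overlap in each of these genes; PBS replicate 1 lies lowest for SRSF11 and SRSF10, and TCI04 replicate 3 stands apart for U2AF2.

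The factors of 3' splice site recognition had the lowest median of the groups, -0.08 over 5 genes, with 3 lower and 2 higher. U2AF2, the large U2AF subunit that binds the polypyrimidine tract, measured 2384, 2363 and 2733 with PBS and 2813, 2442 and 1533 with TCI04. Its log2 difference of -0.18 (95% interval -0.58 to 0.21) came from TCI04 replicate 3, the array with the high ACTB ratio, and without that array it was 0.08 (limma, unadjusted p = 0.419). Its other tested probe set was also lowest in that array, at 226 against 339 to 447 in the other 5. U2AF1, the small subunit that reads the AG at the intron end, measured 8081, 8271 and 9013 with PBS and 7602, 8249.6 and 8176 with TCI04, a log2 difference of -0.08 (interval -0.22 to 0.06).

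SF3A1, a U2 subunit, had signals of 2720, 2716 and 2551 with PBS and 2010.3, 2713 and 2486 with TCI04, a log2 difference of -0.16 (95% interval -0.38 to 0.07; limma, unadjusted p = 0.148). TCI04 replicate 1 was the lowest array, and the difference was -0.04 without it and -0.25 without TCI04 replicate 2. All 4 tested SF3A1 probe sets had a lower mean with TCI04, from -0.16 to -0.09. SF3B1, the branch point factor mutated in several cancers, measured 11698, 10911 and 11348 against 12218, 10680.3 and 12093, a log2 difference of 0.04 (interval -0.10 to 0.18). SF3B2 had a log2 difference of 0.01.

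RBFOX2, QKI and MBNL1 are regulators of alternative exons in differentiation and in the epithelial to mesenchymal transition. MBNL1 gave 10379, 10203 and 10228 with PBS and 9940.4, 10147 and 10717 with TCI04, a log2 difference of -0.0009 and an interval from -0.12 to 0.12. QKI, which also promotes the formation of circular RNAs, measured 8140.4, 7527 and 7484 against 8248, 7628 and 8426, a log2 difference of 0.07 (interval -0.07 to 0.21). RBFOX2, the reader of UGCAUG in breast epithelial and mesenchymal splicing, measured 2526, 2829 and 2896 with PBS and 3014, 2526 and 3169 with TCI04, a log2 difference of 0.07 (interval -0.13 to 0.28).

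Arrays of the same group differed by as much as the groups did. Set against the PBS mean, the median log2 deviation of the 41 members was -0.05 in PBS replicate 1 and 0.03 in PBS replicates 2 and 3. In the TCI04 arrays it was 0.007, -0.010 and 0.008, inside the PBS range. For the 9 SR genes the PBS arrays ran from -0.07 to 0.06 and the TCI04 arrays from -0.01 to 0.02. Over all genes tested the medians of the 6 arrays ran only from -0.01 to 0.03.

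Most of these genes have several probe sets, which can read different 3' ends or transcript variants, and these often disagreed. In 28 of 38 genes with more than 1 tested probe set, the probe sets had log2 differences of both signs, and in the other 10 they shared a sign, 5 lower and 5 higher. Of 152 tested probe sets, 75 had a higher and 77 a lower mean with TCI04. At an unadjusted p under 0.05 there were 6 higher and 6 lower (limma, smallest adjusted p = 0.697), beside 2.21% and 4.88% of all probe sets. At the adjusted threshold 0 of the 152 passed, beside 0% higher and 0.00305% lower of all probe sets. The groups did not overlap in 10 probe sets that were higher and 9 that were lower, beside 5.35% and 8.19% of all probe sets. The probe sets named next were chosen after their values were seen.

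The smallest p belonged to a second RBFOX2 probe set (213901_x_at), whose signals were 1625, 1238 and 1588 with PBS and 881, 1000.2 and 776.9 with TCI04. The TCI04 arrays lay below the PBS arrays, and the log2 difference was -0.73 (standard error 0.12, 95% interval -1.01 to -0.46; limma, unadjusted p = 0.000122, adjusted p = 0.697). The other 3 RBFOX2 probe sets gave 0.07, -0.12 and -0.05, so 3 of 4 had a lower mean, by very different amounts. The suffix of this probe set marks probes shared with other transcripts, and whether such binding plays a part was not tested. Averaged over its 4 probe sets, RBFOX2 had a log2 difference of -0.21 (limma, unadjusted p = 0.0347, adjusted p = 0.717).

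For HNRNPC a dimmer probe set (227110_at) measured 3180, 3020.0 and 3044 with PBS and 3792, 3582 and 3726 with TCI04. The TCI04 arrays lay above the PBS arrays, at a log2 difference of 0.26 (95% interval 0.13 to 0.40; limma, unadjusted p = 0.0013, adjusted p = 0.697). The other 5 tested HNRNPC probe sets all had lower means, from -0.32 to -0.02. SF3B1 showed the reverse arrangement. Its brightest 2 probe sets gave 0.04 and 0.05, while dimmer ones gave -0.31 (214305_s_at, at 886, 754 and 750 with PBS and 683, 625 and 609 with TCI04) and -0.28 (201070_x_at), neither overlapping between groups, and the fifth gave 0.15.

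SRSF11, highest among the coding members by its brightest probe set, had a probe set (213742_at) with a log2 difference of -0.56 (95% interval -1.12 to -0.01) and others at -0.04 and 0.41. With all 4 averaged its log2 difference was 0.01. HNRNPD spanned the widest range, from -0.98 in a dim probe set (227744_s_at, at 74.5 to 83.3 with PBS and 15.6 to 65.3 with TCI04) to 0.15 in one whose groups also did not overlap (209330_s_at). SRSF3 ran from -0.64 to 0.19 over 6 probe sets. The 8 tested SRSF1 probe sets ran from -0.26 to 0.27, and 0 of them had an unadjusted p under 0.05.

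**Figure D3:**
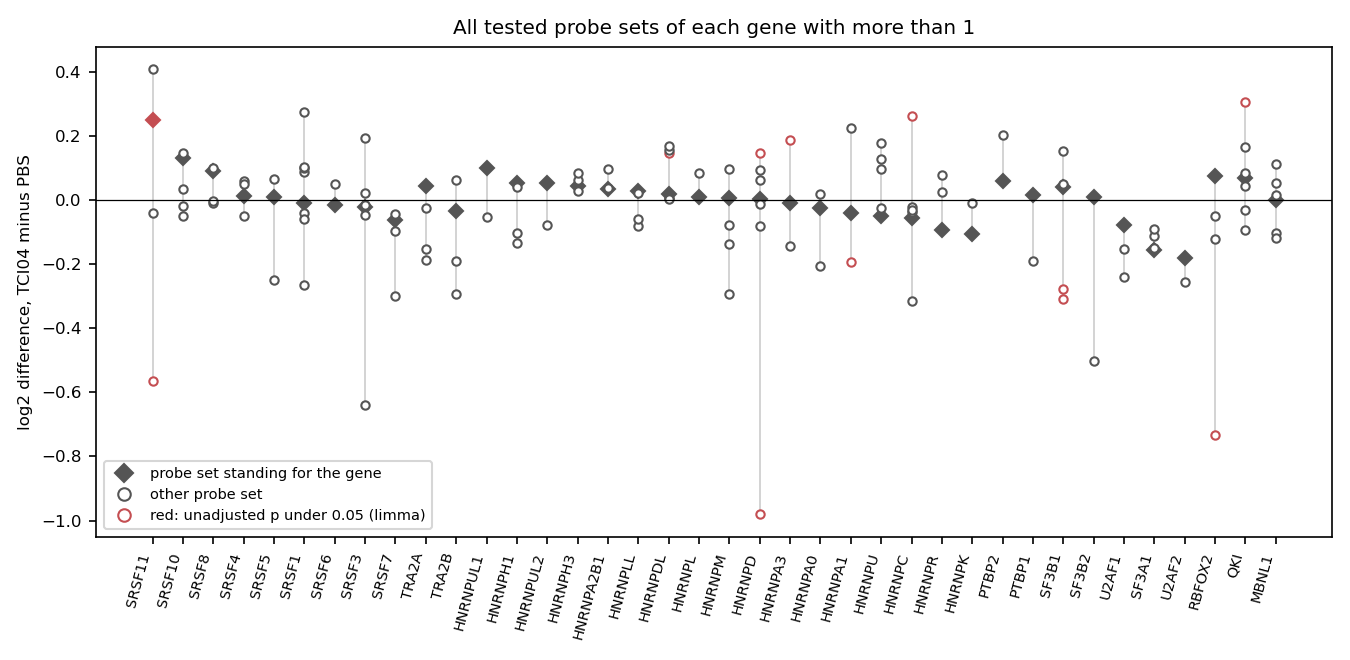
Log2 difference between TCI04 and PBS for the tested probe sets of the 38 splicing factor genes with more than 1; diamonds mark the probe set standing for the gene, circles its other probe sets, and red an unadjusted p under 0.05 in limma. In 28 genes the probe sets lie on both sides of 0, with the widest spread for HNRNPD (-0.98 to 0.15), then SRSF11 (-0.56 to 0.41) and SRSF3 (-0.64 to 0.19).

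Other genes of the splicing machinery, in 6 lists outside the member rule, gave 79 tested genes of 83 with a single-symbol probe set. None passed the adjusted threshold in either direction (limma, smallest adjusted p = 0.697). At an unadjusted p under 0.05, 4 were higher and 3 lower, beside 2.89% and 4.11% of all genes, and the median log2 difference was -0.0002, with 39 higher and 40 lower. The Sm and U snRNP list had 11 lower and 3 higher means among 14 genes (median log2 difference -0.06). Without TCI04 replicate 3, the array with the high ACTB ratio, the list had 9 lower and 5 higher means and a median of -0.04. Leaving out PBS replicate 2 instead also gave 9 and 5, with a median of -0.04. The SR-related list went from 4 lower and 4 higher to 1 and 7 without TCI04 replicate 3. With any other single array left out it had 4 or 5 lower. The tri-snRNP and Prp19 list went from 5 and 5 to 2 and 8 without TCI04 replicate 3. Without PBS replicate 1 that list had 7 lower and 3 higher. The part of RNA quality in these counts was not tested. SNRNP70, the U1 protein that SR proteins contact at the 5' splice site, measured 2801, 3051 and 3395 with PBS and 2611, 2747 and 1987 with TCI04, a log2 difference of -0.34. The value from TCI04 replicate 3 was again the lowest, and without it the difference was -0.20. SNRNP40, a U5 protein, measured 3019 to 3166 with PBS and 2733 to 2795 with TCI04, a log2 difference of -0.17.

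CLK1, a kinase that phosphorylates SR proteins in the nucleus, measured 908, 855 and 850.0 with PBS and 1045, 994 and 1096 with TCI04. Its arrays did not overlap, and the log2 difference was 0.26 (95% interval 0.08 to 0.44; limma, unadjusted p = 0.00984, adjusted p = 0.697). Of the 7 SR protein kinases tested, 4 were higher and 3 lower, with a median of 0.02. The branch point protein SF1 measured 3926 to 3934 with PBS and 4334 to 4393 with TCI04, a log2 difference of 0.15, but its averaged probe sets gave -0.18. Of 8 SR-related proteins, 4 were higher, among them SON, a large SR-related protein of nuclear speckles. SON measured 6042, 5644 and 5737 with PBS and 6442, 6107 and 6587 with TCI04, a log2 difference of 0.14.

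Among the other alternative splicing regulators, 17 of 28 had a higher and 11 a lower mean, with a median of 0.03. KHDRBS1 (Sam68), an RNA-binding target of signalling kinases, measured 9218, 10337 and 9879.9 with PBS and 11549.8, 10190.8 and 11524 with TCI04, a log2 difference of 0.18. Its groups overlapped, since TCI04 replicate 2 lay below PBS replicate 2. RALY, a relative of hnRNP C, measured 1587 to 1684 with PBS and 1249 to 1445 with TCI04, a log2 difference of -0.26 (95% interval -0.44 to -0.09; limma, unadjusted p = 0.00792, adjusted p = 0.697). The branch point list had 6 higher and 6 lower genes.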

How the data were processed

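RNA was measured on Affymetrix arrays. The deposited values are linear intensities, computed with MAS5 per the submitters' processing notes, whose version is not given. The trimmed mean without the 2% of values at each end was 500.1 throughout, so the authors had scaled the arrays. Of 54675 probe sets, 62 were controls; platform annotation gave 1 symbol for 41097, several for 1801 and none for 11777, and only those with 1 were named. By Entrez ID, 41043 of them matched the RefSeq gene table, with 0 symbols changed.

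An offset of 10.96 (20th percentile of the table) was added before taking log2, so fold changes of dim probe sets are understated. Controls and probe sets with a mean log2 below the 40th percentile (signal 33.9) were dropped, leaving 32746. The model was fitted on all of these in limma 3.58.1 under R 4.3.3 (eBayes with trend, TCI04 minus PBS, two-sided), with Benjamini-Hochberg adjustment and a threshold of 0.05. The 95% intervals use 10.5 total degrees of freedom, and the number of arrays limits them. The limma fit and its adjustment were run on simulated data, drawn on the log2 scale after the offset and the filter. The earlier steps were not simulated.

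Alternatives were quantile normalization, median centring, other offsets, filters and choices of probe set, other eBayes settings, array weights, a replicate block, leaving out each array, and an unmoderated ordinary test. Array values are given for members with non-overlapping groups, the 6 with the smallest p in each direction and a set of textbook members, and for up to 3 genes of each other list with the smallest unadjusted p under 0.05. Leaving out arrays for the counts of the other splicing lists was added after seeing the data. The members and lists were chosen with earlier results of these data known.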

Additional observations from a re-analysis of the deposited data

How the results depend on the processing

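In all 19 alternatives 0 members passed the adjusted threshold in either direction. The members with an interval within 1.5-fold, a count chosen after seeing the data, stayed at 37 to 41 where 40 or more were measured, and at 30 of 33 without probe sets ending in _x_at or _s_at. The number higher at an unadjusted p under 0.05, 1 as reported, was 2 after quantile normalization, 6 with median centring and 0 with averaged probe sets, no variance trend, array weights or the ordinary test. With single arrays left out it ran from 0 to 2: leaving out PBS replicate 2 gave 2, and leaving out PBS replicate 1, PBS replicate 3 or TCI04 replicate 3 gave 0. The number lower, 0 as reported, was 2 with averaged probe sets, 1 without _x_at and _s_at probe sets, 1 with array weights and 2 with the replicate block; with single arrays left out it ran from 0 to 2, with 2 (HNRNPAB and HNRNPK) on leaving out PBS replicate 1 and 1 on leaving out TCI04 replicate 2. The members' median moved to 0.168 with median centring and ran from -0.003 to 0.023 with single arrays left out. Whether the replicate numbers pair the arrays was not settled. Deviations of same-numbered arrays correlated at 0.004, 0.062 and 0.050. Other pairs of a PBS and a TCI04 array correlated at -0.061 to 0.009. Deviations were taken from each group's own mean and cancel within the group. Positive values in some pairs therefore require negative values in others, and the contrast between them is no separate evidence of pairing. With the replicate block the smallest adjusted p of a member in limma was 0.478, beside 0.697 as reported.

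Of 30 tested genes followed, 10 kept their sign in the alternatives that measured them and 20 turned, 5 of these under median centring only, which shifts all genes alike. With quantile normalization MBNL1 gave 0.0082, SRSF1 0.038 and SRSF3 0.017. With median centring HNRNPA1 gave 0.119, HNRNPAB 0.040, HNRNPC 0.103, HNRNPK 0.053, HNRNPR 0.066, HNRNPU 0.109, MBNL1 0.159, SF3A1 0.0021, SRSF1 0.151, SRSF3 0.138, TRA2B 0.127 and U2AF1 0.082. With averaged probe sets HNRNPR gave 0.0024, HNRNPU 0.065, PTBP1 -0.087, RBFOX2 -0.208, SF3B1 -0.069, SRSF1 0.024, TRA2A -0.081 and SF1 -0.181. Without _x_at and _s_at probe sets HNRNPC gave 0.263, HNRNPR 0.077, HNRNPU 0.126, RBFOX2 -0.050, SRSF1 0.100, SRSF11 -0.042, SRSF8 -0.0090 and SF1 -0.509, and with array weights PTBP1 gave -0.0062. With single arrays left out the lowest and highest values were -0.125 and 0.016 for HNRNPC, -0.032 and 0.022 for MBNL1, -0.059 and 0.073 for PTBP1, -0.045 and 0.025 for SRSF1, -0.085 and 0.0032 for HNRNPA1 and -0.360 and 0.075 for U2AF2. The cause of the turns outside median centring was not tested.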
